A study of Mus musculus with 12 samples.

Results

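The potassium channel genes of mouse dorsal root ganglia were examined 24 h after a spinal cord injury, in animals given the histone deacetylase inhibitor MS275 or its vehicle. Members were taken by name: 92 symbols in the count files had the form Kcn, a subfamily letter or letters and a number, and 81 of these had at least 10 reads in 3 or more RNA libraries. All 81 were among the 16819 genes tested, of 44345 genes in the files. At the edge of the read minimum, Kcna10 was kept with 27, 24 and 18 reads in MS275 libraries and 15, 17 and 8 in vehicle libraries. Kcna7, a subunit known from muscle, stayed out with 47, 7 and 5 reads in MS275 libraries and 5, 5 and 7 in vehicle libraries. The other 10 symbols left out were Kcne1, Kcne2, Kcnh4, Kcnj1, Kcnj5, Kcnk7, Kcnk15, Kcnk16, Kcnmb3 and Kcnv2.

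The MS275 group had dorsal column axotomy (DCA), a cut of the central axon branches of sensory neurons in the spinal cord, with intraperitoneal MS275 at 12 mg/kg. The vehicle group had the same cut with 3.2% Tween80, 20% PEG300 and 4% DMSO, so the injury was common to both groups and no uninjured ganglia were analysed here. In both groups C57BL/6 mice aged 6 to 8 weeks were injected when injured and again 2 h before the ganglia of lumbar levels L4 to L6 were taken. Each group had 3 RNA libraries, each a pool of 2 mice, and 3 libraries for ATAC-seq, an assay of open chromatin, each from 1 mouse.

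Potassium channels let potassium leave the cell and so set the resting potential, repolarise the action potential and limit repetitive firing. Voltage-gated subunits open on depolarisation, inward rectifiers and tandem-pore channels act near rest, and a further class opens on internal calcium or sodium. In sensory neurons these channels hold excitability down, and many of their genes are known to be repressed in the ganglion after injury of the peripheral nerve. Satellite glia, the cells that wrap each neuronal cell body, use Kcnj10 channels to take up potassium.

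Between 34992533 and 60370523 reads per library were assigned to genes. Sensory neuron markers were present in each library, and 18 of 18 listed were detected. Their summed level was 28729.2 to 31522.7 CPM, reads scaled by library size, in MS275 libraries and 27313.1 to 28573.2 CPM in vehicle libraries, without overlap. Of the 18, 1 passed as higher (5.10% of all genes did) and none as lower. A positive log2 fold change was found for 16 of the 18, with a median of 0.088, and MS275 libraries lay above every vehicle library for 11. Genes of 9 skeletal muscle markers summed to 695.9, 87.0 and 98.3 CPM in MS275 libraries and 14.1, 6.8 and 58.3 CPM in vehicle libraries, and 8 of the 9 passed the test as higher with MS275. Endothelial markers summed to 182.0 to 205.5 CPM in MS275 libraries and 142.7 to 159.9 CPM in vehicle libraries, with 5 of 10 passing as higher, and mural cell markers to 339.7 to 391.1 CPM in MS275 libraries and 266.0 to 309.7 CPM in vehicle libraries, with 3 of 7 passing. Nociceptor markers summed to 5505.6 to 5981.9 CPM in MS275 libraries and 5290.6 to 5349.4 CPM in vehicle libraries, without overlap, and 5 of 16 passed as higher. Large-diameter neuron markers summed to 1127.9 to 1151.4 CPM in MS275 libraries and 1058.7 to 1098.1 CPM in vehicle libraries. Those sums did not overlap either, and 2 of 9 passed as higher. Satellite glia markers overlapped, at 4595.7 to 4929.5 CPM in MS275 libraries and 4535.1 to 4712.7 CPM in vehicle libraries, with 2 of 11 passing as higher and 3 as lower. MS275 library 1 stood apart in more than muscle genes: neutrophil markers summed to 261.0 CPM there and to 39.2 to 74.4 CPM in the other libraries, and erythroid markers to 142.2 CPM there and 31.5 to 63.8 CPM elsewhere. Without that library 11 members passed, 9 of them among the 11 that passed with all libraries. None of these lists had a gene at 0 in every library, and their part in the results on potassium channel genes was not tested beyond a fit with the muscle sum as a covariate. That sum was higher in each MS275 library than in each vehicle library, so this fit cannot tell muscle from treatment. In bulk ganglia, fewer cells of a type and less RNA per cell cannot be told apart.

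Potassium channel genes passed the test about as often as other genes, and most of those that passed were higher with MS275. Of the 81 genes, 11 passed edgeR's quasi-likelihood test at a Benjamini-Hochberg adjusted p under 0.05, or 13.6%, against 11.0% of all genes tested. Among them 9 were higher with MS275 (11.1%, against 5.10% of all genes) and 2 were lower (2.47%, against 5.89%). The total share was near the background. An unadjusted p under 0.05 was met by 23 members (28.4%, against 28.5% of all genes), and 49 had a positive log2 fold change (60.5%, against 50.5%). The median log2 fold change was 0.03 over the 81 genes and 0.00 over all genes. Groups did not overlap for 24 members, or 29.6%, against 33.8% of all genes. MS275 libraries lay above every vehicle library for 20 of them (24.7%, against 15.9%) and below for 4 (4.94%, against 17.9%). Only 3 of the 11, Kcnk18, Kcns2 and Kcnj14, changed by 1.5-fold or more, which is 3.7% of members against 2.48% of all genes. The summed level of the 81 genes overlapped between the groups, at 5458.6, 5851.3 and 5874.0 CPM in MS275 libraries and 5704.6, 5592.3 and 5511.0 CPM in vehicle libraries.

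**Figure D1:**
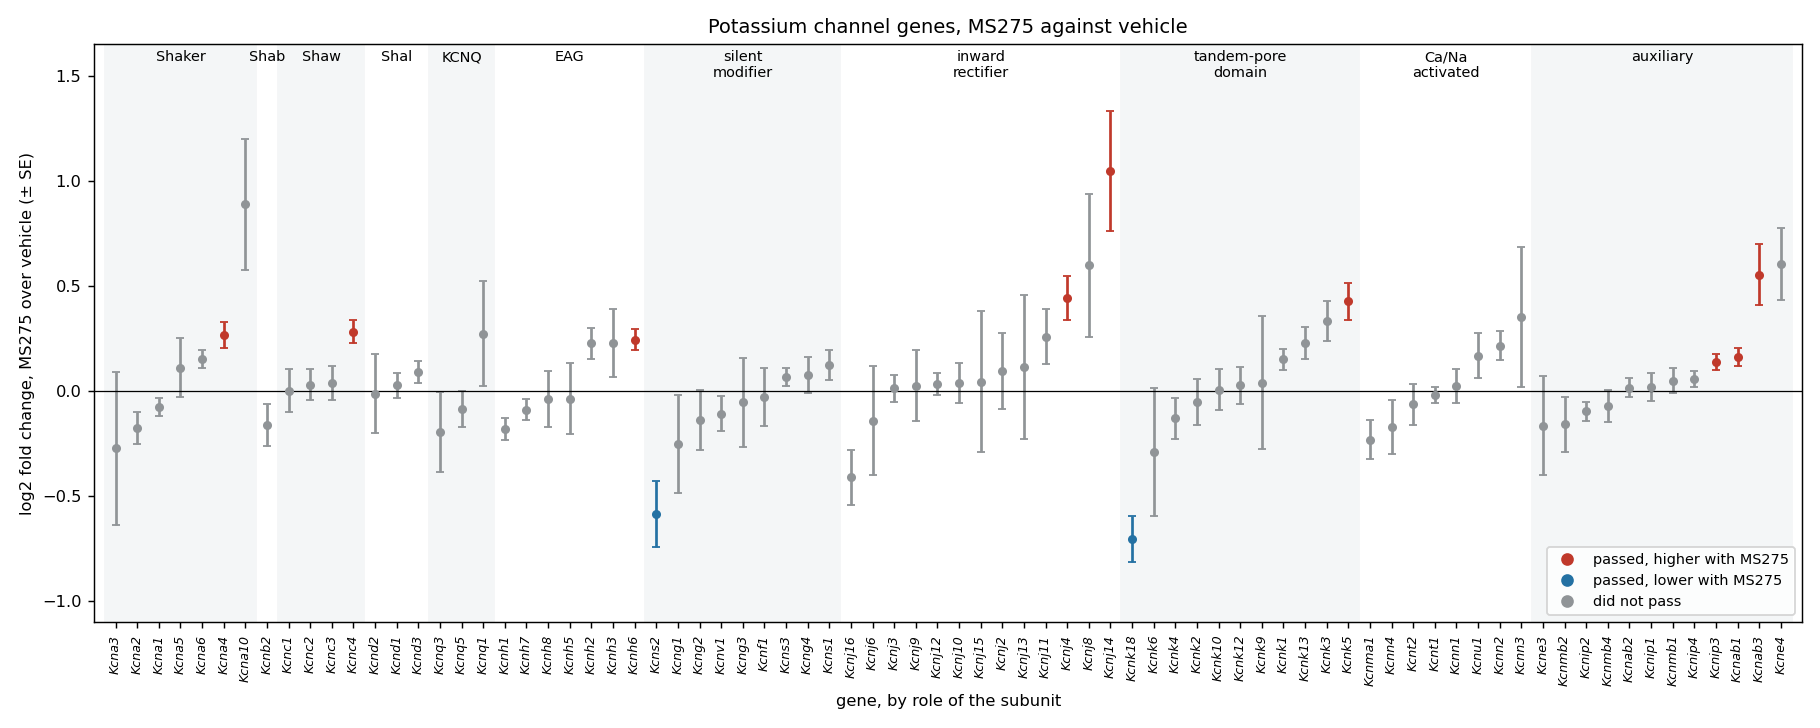
Log2 fold change of MS275 over vehicle (y axis, points, with bars of 1 standard error) for 78 of the 81 potassium channel genes (x axis), grouped by the role of the subunit, from 3 libraries per group. Coloured points passed the adjusted p threshold of 0.05, with 9 above 0 and 2, Kcnk18 and Kcns2, below 0.

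The largest drop was in Kcnk18, which encodes TRESK, a tandem-pore background potassium channel of sensory neurons that is activated by calcineurin and limits nociceptor firing. Its level was 6.21, 7.99 and 7.36 CPM in MS275 libraries and 12.4, 10.7 and 12.1 CPM in vehicle libraries. Each MS275 library lay below each vehicle library. The means were 7.18 ± 0.904 CPM with MS275 and 11.7 ± 0.912 CPM with vehicle (SD, n = 3 each), or 0.613 times the vehicle level. The log2 fold change was -0.71 (SE 0.11, edgeR adjusted p = 0.00726). Kcnk18 was the single member that passed in each of the 6 fits that left out 1 library. It did not pass with the muscle sum as a covariate, where the log2 fold change was -0.61 with an edgeR adjusted p of 0.168. Kcnk18 lies at chr19:59219648-59237370 of mm10. The 250 bases before its start are shown because the open region described further on covers part of them. None of the motifs searched, which are spelled out with the promoters, is in this stretch of the plus strand, chr19:59219398-59219647 (RefSeq, GRCm38.p6).
Kcnk18: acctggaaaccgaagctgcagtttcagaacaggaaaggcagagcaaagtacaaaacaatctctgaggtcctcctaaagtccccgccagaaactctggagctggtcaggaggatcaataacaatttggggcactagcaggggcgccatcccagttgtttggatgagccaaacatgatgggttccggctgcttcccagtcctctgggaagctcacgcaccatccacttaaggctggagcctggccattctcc

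A second tandem-pore gene, Kcnk5, moved the other way. Kcnk5 encodes a background channel opened by alkaline pH and known chiefly from epithelia. It was at 10.5, 10.5 and 9.07 CPM in MS275 libraries and 7.44, 7.26 and 7.77 CPM in vehicle libraries, with no overlap. The log2 fold change was 0.43 (SE 0.09, edgeR adjusted p = 0.0192), and the gene passed in 3 of the 6 fits that left out a library. The other 9 of 11 tandem-pore genes did not pass, where 11.0% of all genes passed. The median log2 fold change of the 11 was 0.03. Kcnk3, an acid-sensitive background channel, had 36.8, 30.8 and 29.1 CPM in MS275 libraries and 24.7, 24.1 and 28.3 CPM in vehicle libraries, which do not overlap, yet its edgeR adjusted p was 0.0548. Kcnk1 (0.15, adjusted p = 0.077) and Kcnk13 (0.23, adjusted p = 0.0857) also had MS275 libraries above vehicle without passing edgeR's test. The mechanosensitive channels Kcnk2 and Kcnk4 had log2 fold changes of -0.05 and -0.13, with overlapping libraries. Kcnk5 lies at chr14:20140057-20181782, and the 250 bases before its start on the minus strand, chr14:20181783-20182032, hold 3 GC boxes, in capitals.
Kcnk5: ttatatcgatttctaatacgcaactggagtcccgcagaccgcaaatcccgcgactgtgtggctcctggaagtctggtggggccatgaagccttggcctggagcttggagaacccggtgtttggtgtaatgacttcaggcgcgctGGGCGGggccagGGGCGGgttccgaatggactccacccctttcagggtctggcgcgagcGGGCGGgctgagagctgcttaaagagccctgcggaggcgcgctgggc

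Among the 28 voltage-gated pore-forming subunits, 3 were higher with MS275 and none passed as lower, where 5.10% of all genes were higher and 5.89% lower. The median log2 fold change of the 28 was 0.03. The 3 were Kcna4, Kcnc4 and Kcnh6. Kcna4 forms rapidly inactivating A-type channels typical of small nociceptive neurons. Its level was 24.9, 24.4 and 26.2 CPM in MS275 libraries and 21.3, 20.0 and 21.4 CPM in vehicle libraries, a log2 fold change of 0.27 (SE 0.06, edgeR adjusted p = 0.0265). Both groups were tight, and they did not overlap, but Kcna4 passed in only 2 of the 6 fits that left out a library. Kcnc4, a fast-inactivating subunit that opens at strong depolarisation and shortens the action potential of nociceptors, was at 76.8, 82.7 and 86.5 CPM in MS275 libraries and 70.2, 68.0 and 64.0 CPM in vehicle libraries. Its log2 fold change was 0.28 (SE 0.06, edgeR adjusted p = 0.0151). After Kcnk18 it passed in the most fits that left out a library, 4 of 6. Kcnh6, a subunit related to the cardiac repolarising channel Kcnh2, had 50.9, 48.5 and 46.4 CPM in MS275 libraries and 40.7, 40.9 and 41.7 CPM in vehicle libraries, a log2 fold change of 0.24 (SE 0.05, edgeR adjusted p = 0.016). Kcnh6 passed in 3 of the 6 fits that left out a library, and its span overlaps the annotated gene Gm35971. The 250 bases before the start of Kcna4 (plus strand, chr2:107290339-107290588) hold 1 GC box read on the opposite strand, in capitals.
Kcna4: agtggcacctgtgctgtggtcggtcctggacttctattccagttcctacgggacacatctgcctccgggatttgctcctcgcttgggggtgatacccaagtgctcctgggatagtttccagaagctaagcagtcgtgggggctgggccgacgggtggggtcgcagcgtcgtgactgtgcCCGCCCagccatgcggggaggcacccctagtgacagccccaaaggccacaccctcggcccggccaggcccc

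**Figure D2:**
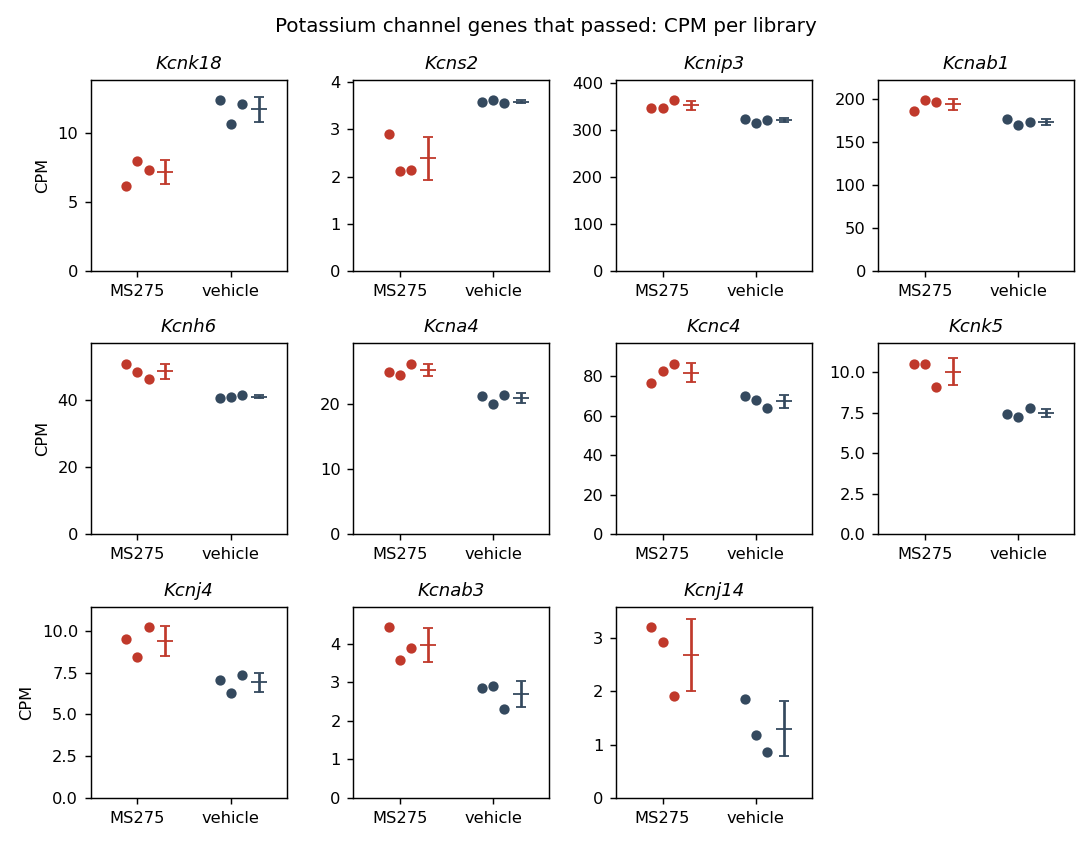
Level in CPM (y axis, starting at 0) of the 11 potassium channel genes that passed, in each of 3 MS275 (left, red) and 3 vehicle (right, dark) libraries, with the mean and SD beside the points. In each panel the groups do not overlap; Kcnk18 and Kcns2 are lower with MS275 and the other 9 are higher.

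None of the other voltage-gated pore-forming subunits passed. In the Shaker subfamily, Kcna1 and Kcna2, the juxtaparanodal subunits of myelinated axons, had log2 fold changes of -0.08 (95% interval -0.17 to 0.02) and -0.18 (-0.35 to -0.01). Kcna1 was at 535.9, 575.2 and 561.1 CPM in MS275 libraries and 600.3, 591.4 and 571.4 CPM in vehicle libraries, an overlap of a single pair. Kcna6 was above vehicle in each MS275 library, at 203.1, 223.9 and 212.7 CPM in MS275 libraries and 192.6, 191.6 and 191.6 CPM in vehicle libraries, and came close to the threshold (0.15, edgeR adjusted p = 0.0562). Kcna10 had the second largest positive value of the 81, 0.89, on counts of 27 reads or fewer, with an edgeR adjusted p of 0.0959. Of the 7 Shaker genes, 1 passed as higher and none as lower, where 5.10% of all genes were higher and 5.89% lower.

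Of the KCNQ genes, which carry the M-current that brakes repetitive firing, none of 5 passed (11.0% of all genes did). Kcnq5 had 25.3, 31.3 and 31.2 CPM in MS275 libraries and 32.2, 31.7 and 29.3 CPM in vehicle libraries. The groups overlapped, and the 95% interval of its log2 fold change ran from -0.28 to 0.10. For Kcnq3, at 5.06, 9.08 and 6.34 CPM in MS275 libraries and 8.62, 8.13 and 6.76 CPM in vehicle libraries, the interval was wider, -0.63 to 0.24. Kcnb2, a delayed rectifier of the Shab subfamily, had a log2 fold change of -0.16 with overlapping libraries. The Shal genes, which form the low-threshold A-type current, had values of 0.03 for Kcnd1, -0.01 for Kcnd2 and 0.09 for Kcnd3, and the 95% interval was -0.11 to 0.16 for Kcnd1 and -0.02 to 0.20 for Kcnd3.

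In the EAG subfamily 1 of 7 genes passed, where 11.0% of all genes did. Values of the 7 were spread on both sides of 0 around a median of -0.04. Kcnh2 had 136.8, 155.4 and 172.1 CPM in MS275 libraries and 129.9, 132.8 and 134.1 CPM in vehicle libraries. No library overlapped, but the spread among MS275 libraries was wide and the edgeR adjusted p was 0.0738. Kcnh1 lay on the other side, at 53.6, 60.8 and 55.0 CPM in MS275 libraries and 64.6, 63.6 and 63.9 CPM in vehicle libraries, with a log2 fold change of -0.18 and an edgeR adjusted p of 0.0558. Kcnh7, related to Kcnh2, had a value of -0.09.

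The silent modifiers (Kcnf, Kcng, Kcns and Kcnv) form no channel alone and alter Kcnb channels when they join them. Of the 9, 1 passed, as lower (5.89% of all genes passed as lower). Kcns2 was at 2.91, 2.11 and 2.14 CPM in MS275 libraries, against 3.59, 3.62 and 3.56 CPM in vehicle libraries. Its log2 fold change was -0.59 (SE 0.16, edgeR adjusted p = 0.0422). The vehicle libraries were close to one another and the MS275 libraries were spread. It passed in 1 of the 6 fits that left out a library, and its span overlaps the annotated gene Gm32970. Its relatives Kcns1 and Kcns3 had log2 fold changes of 0.12 and 0.07. Kcng4 had a value of 0.08, Kcnv1 -0.11, Kcng1 -0.25 and Kcnf1 -0.03, all with overlapping libraries.

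Of the 13 inward rectifiers, 2 were higher with MS275, where 5.10% of all genes were. A positive log2 fold change was found for 11 of them, against 50.5% of all genes, and the median was small, at 0.04. Kcnj14 and Kcnj4 encode strong rectifiers that stabilise the resting potential. Kcnj14 had the largest change of the 81 genes, at 3.20, 2.91 and 1.91 CPM in MS275 libraries and 1.86, 1.18 and 0.858 CPM in vehicle libraries. The lowest MS275 library and the highest vehicle library nearly touched. The fold was 2.07 (log2 fold change 1.05, SE 0.28, edgeR adjusted p = 0.0456), and it passed in 2 of 6 fits that left out a library. Kcnj4 was at 9.53, 8.43 and 10.2 CPM in MS275 libraries and 7.09, 6.27 and 7.37 CPM in vehicle libraries (log2 fold change 0.44, SE 0.10, edgeR adjusted p = 0.0284). It also passed in 2 of those 6 fits.

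The glial channel genes did not pass. Kcnj10 had 82.2, 101.1 and 79.0 CPM in MS275 libraries and 78.6, 93.3 and 83.8 CPM in vehicle libraries, and the 95% interval of its log2 fold change was -0.17 to 0.25. Kcnj16, whose product joins that of Kcnj10 in mixed channels, was lower in each MS275 library, at 3.03, 3.90 and 3.88 CPM in MS275 libraries and 4.68, 4.95 and 4.72 CPM in vehicle libraries, with an edgeR adjusted p of 0.0702. Kcnj8, the pore of the ATP-sensitive channel of pericytes, had a value of 0.60 with overlapping libraries. Kcnj11, the pore of the ATP-sensitive channel of neurons and endocrine cells, had a value of 0.26 and an edgeR adjusted p of 0.228. Kcnj3, a G-protein-activated rectifier, had a value of 0.01 with overlapping libraries. A list of members known chiefly from non-neuronal cells had 15 that were tested, with Kcnj11 among them although it is also a channel of neurons. Of the 15, Kcnk5 alone passed, as higher (5.10% of all genes did), and their median log2 fold change was 0.05.

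None of the 8 calcium- or sodium-activated channel genes passed, where 11.0% of all genes did. The median log2 fold change of the 8 was 0.00. Kcnma1, the large-conductance calcium-activated channel, had 13.96, 16.7 and 15.4 CPM in MS275 libraries and 20.0, 17.6 and 16.6 CPM in vehicle libraries (log2 fold change -0.23, edgeR adjusted p = 0.136). Kcnt1, a sodium-activated channel, had a value of -0.02, with a 95% interval of -0.11 to 0.07. Kcnn2, a small-conductance channel of the afterhyperpolarisation, was higher in each MS275 library (0.22, edgeR adjusted p = 0.076). Kcnn1, Kcnt2 and Kcnu1, the last known from sperm, had values of 0.02, -0.06 and 0.17 with overlapping libraries.

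Of 12 auxiliary subunits tested, 3 were higher with MS275, where 5.10% of all genes were, and none was lower; these are counts in a small group. Kcnab1 and Kcnab3 encode beta subunits that bind Shaker channels, and that of Kcnab1 speeds their inactivation. Kcnab1 was at 185.9, 198.3 and 196.2 CPM in MS275 libraries and 176.6, 169.9 and 172.7 CPM in vehicle libraries (log2 fold change 0.16, SE 0.04, edgeR adjusted p = 0.039). Kcnab3 was at 4.43, 3.57 and 3.88 CPM in MS275 libraries and 2.87, 2.90 and 2.30 CPM in vehicle libraries (0.55, SE 0.15, edgeR adjusted p = 0.0423). Of the 6 fits that left out a library, Kcnab1 passed in 2 and Kcnab3 in 1. The third beta subunit gene, Kcnab2, had a value of 0.01 with a 95% interval of -0.09 to 0.12. Kcnip3 encodes a calcium sensor that binds Shal channels and is also known as DREAM, a transcriptional repressor. It had 348.3, 347.5 and 363.9 CPM in MS275 libraries and 324.1, 315.9 and 322.8 CPM in vehicle libraries (0.14, SE 0.04, edgeR adjusted p = 0.0474). The change was small and the libraries of each group were close. Kcnip3 did not pass when the replicate number was used as a block or without the filter on low counts. It passed in 2 of the 6 fits that left out a library. Kcnip1, Kcnip2 and Kcnip4 had values of 0.02, -0.10 and 0.05. Kcne4, a regulator of KCNQ channels in smooth muscle, had 4.62, 3.44 and 3.04 CPM in MS275 libraries and 2.34, 2.49 and 2.50 CPM in vehicle libraries, and missed the threshold (0.60, edgeR adjusted p = 0.051). Kcnmb1, the beta subunit of Kcnma1 in smooth muscle, had a value of 0.05, Kcnmb2 -0.16 and Kcnmb4, the neuronal beta subunit, -0.07. The Kcnmb1 gene lies within the span of Kcnip1.

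Leaving out 1 library at a time changed the count of members that passed. Each of the 11 kept its sign in all 13 alternatives. Their groups did not overlap with all libraries in the fit, so a turned sign was hardly possible. The kept signs are therefore no separate support. Without vehicle library 1, 3 members passed (Kcnk18, Kcnc4 and Kcnj14), and without vehicle library 2 or vehicle library 3 Kcnk18 alone did. Over all genes the count also fell, to 375, 261 and 728 without vehicle library 1, 2 and 3, against 1849 with all libraries. The 2 counts were not parallel: without vehicle library 3, 4.24% of all genes passed, but of the members Kcnk18 alone. Without MS275 library 1, 2 and 3 the members that passed numbered 11, 15 and 6. Of all genes tested, 1875 (11.0%), 2763 (16.1%) and 882 (5.14%) passed in these fits. With the muscle sum as a covariate no member passed, and 33 of all genes did. As that sum goes with treatment, the fit cannot tell the 2 apart. The values of the 11 kept their signs. They were larger in size for some, at 0.42 for Kcnc4 and -0.85 for Kcns2, and smaller for others, at 0.17 for Kcnh6 and 0.31 for Kcnj4.

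**Figure D3:**
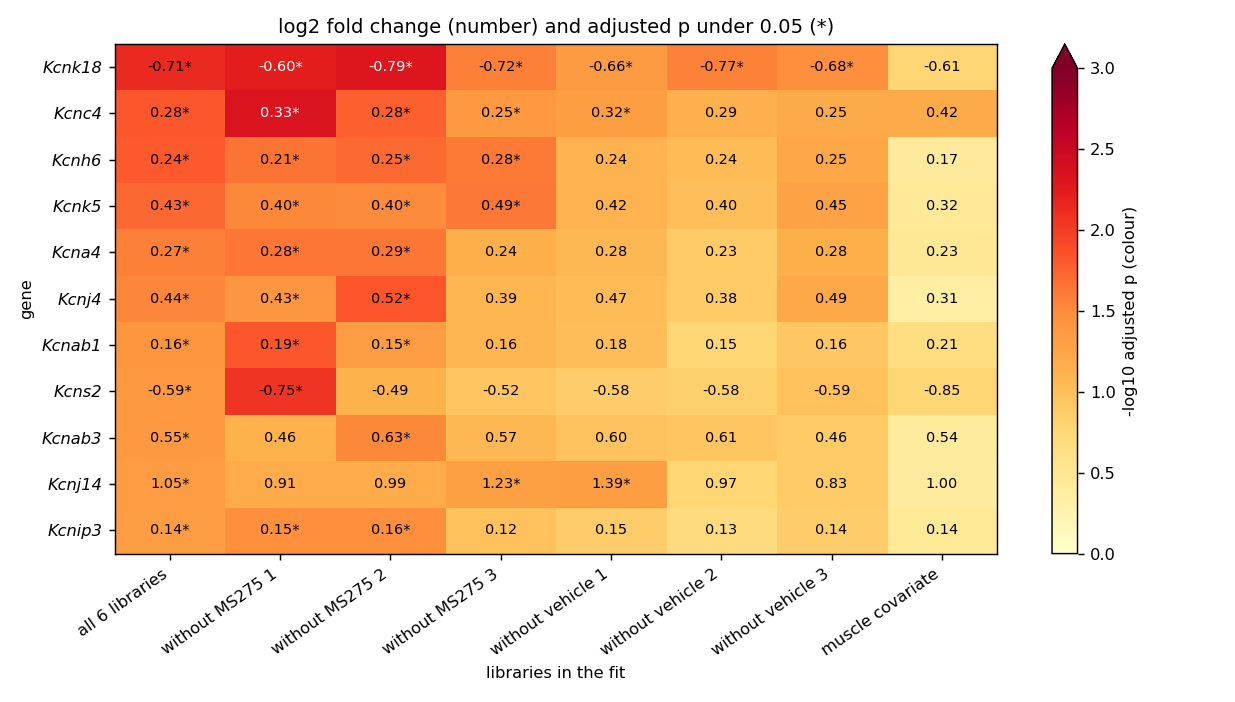
Log2 fold change (numbers) and edgeR adjusted p (colour, as -log10; a star marks adjusted p under 0.05) of the 11 genes that passed (rows), with all 6 libraries, without each library in turn, and with the muscle sum as a covariate (columns). Kcnk18 keeps its star without any 1 library, between -0.60 and -0.79, and has none with the muscle covariate.

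Genes that act on these channels were also read. Of 27 tested partners and regulators, among them accessory proteins and calmodulin genes, none passed edgeR's test, where 11.0% of all genes did. An unadjusted p under 0.05 was met by 1, Calm2 (28.5% of all genes met it), and 1 was called by DESeq2. The median log2 fold change of the 27 was -0.01. None of the 4 HCN genes, hyperpolarisation-activated cation channels that oppose potassium currents near rest, passed. The number with an unadjusted p under 0.05 was 0 in edgeR, and the number called by DESeq2 was 0. Without MS275 library 2, 1 HCN gene was called lower.

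Of 12 repressors or chromatin factors listed for potassium channel genes in injured ganglia, 3 were lower with MS275 (5.89% of all genes were) and none was higher (5.10% of all genes were); a list this short is described by its counts only. Rest, the repressor of neuronal genes that binds the RE1 element, was at 5.92, 5.08 and 4.40 CPM in MS275 libraries and 8.33, 8.54 and 8.10 CPM in vehicle libraries (log2 fold change -0.69, SE 0.11, edgeR adjusted p = 0.00901). Its edgeR adjusted p was 0.0552 without vehicle library 2. Sin3a, a scaffold of histone deacetylase complexes, was at 18.7, 18.3 and 18.7 CPM in MS275 libraries and 26.5, 26.5 and 24.9 CPM in vehicle libraries (-0.48, SE 0.06, edgeR adjusted p = 0.00282). It passed without each library in turn. Ehmt1, a histone H3 lysine methyltransferase partner of Ehmt2, was at 18.1, 17.7 and 17.0 CPM in MS275 libraries and 21.4, 22.1 and 20.6 CPM in vehicle libraries (-0.28, SE 0.06, edgeR adjusted p = 0.024). It passed in 2 of the 6 fits that left out a library. The genes of the deacetylases that MS275 binds, did not pass, with values of 0.02 for Hdac1, 0.04 for Hdac2 and 0.02 for Hdac3. With the muscle covariate none of the 12 passed, while the log2 fold changes were -0.84 for Rest, -0.44 for Sin3a and -0.26 for Ehmt1.

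**Figure D4:**
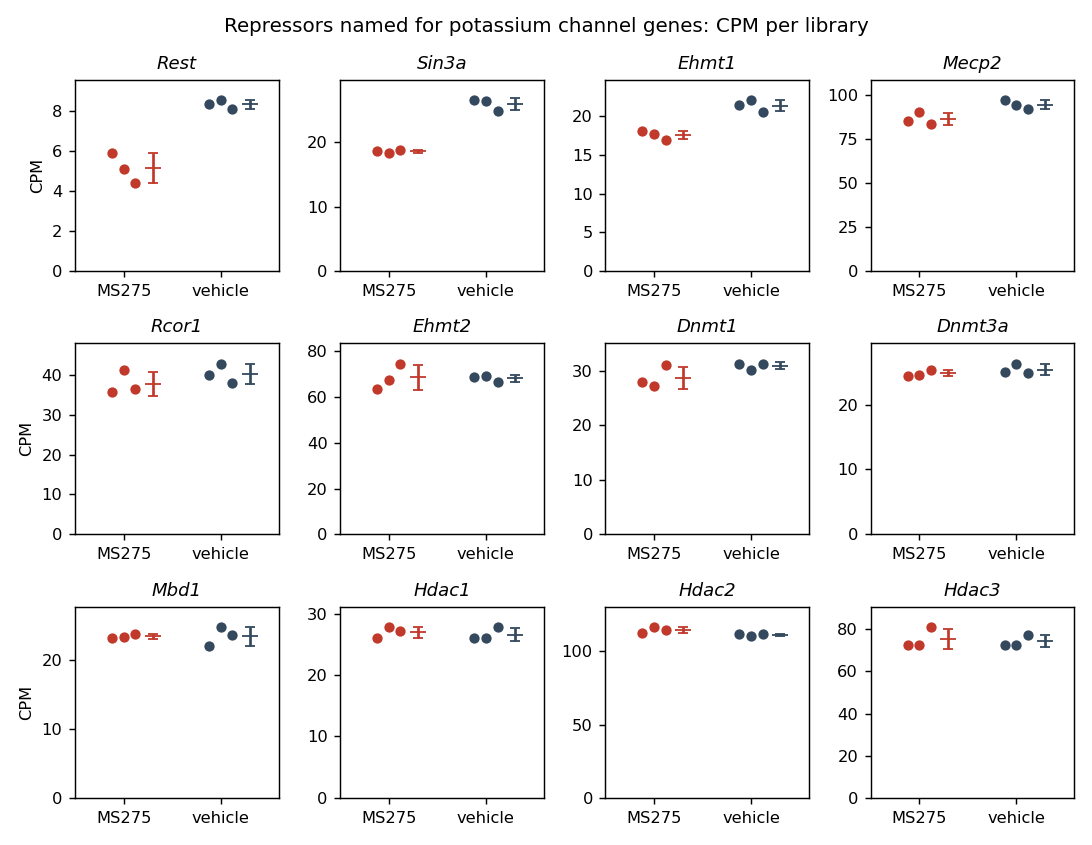
Level in CPM (y axis, starting at 0) of 12 repressors and chromatin factors in each of 3 MS275 (left, red) and 3 vehicle (right, dark) libraries, with mean and SD beside the points. Rest, Sin3a and Ehmt1 passed as lower with MS275, and their groups do not overlap.

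Some members are neighbours in the genome (mm10). On chromosome 3, Kcna3, Kcna2, Kcna10 and Kcnc4 follow one another with gaps of 52.8, 68.1 and 242.6 kb, and of these Kcnc4 alone passed. On chromosome 6, Kcna5, Kcna1 and Kcna6 lie 100.9 and 62.5 kb apart, and none passed. On chromosome 7 Kcnj14, which passed, is followed by Kcnj11 at 272.4 kb, which did not. Another annotated gene overlaps the span of 37 of the 81 members and of 4 of the 11 that passed, and reads there may belong to either gene.

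Open chromatin was deposited as 1 list of regions per treatment, with 161788 regions for MS275 and 177906 for vehicle, so presence in a list has no replicate error. A region lay within 1000 bp of the start, or of either end where the strand was not known, for 71 of 81 members in both lists (87.7%, against 85.7% of all genes placed). None had a region in the MS275 list alone (1.93% of all genes), 2 in the vehicle list alone, Kcnip2 and Kcnt1 (2.47%, against 2.91%), and 8 in neither list (9.88%, against 9.46%). These shares were near the background. All 11 members that passed had a region in both lists. With regions kept only at a −log10 q of at least 5, 7 of the 11 did: Kcnc4 and Kcnj4 then had one in the vehicle list alone, Kcnh6 in the MS275 list alone and Kcnj14 in neither. At this limit 61.7% of members had a region in both lists, against 74.7% of all genes placed, and the MS275 list was the shorter. The 3 split genes lay near the limit, with −log10 q in the MS275 and vehicle lists of 3.6 and 5.5 for Kcnc4, 4.8 and 6.5 for Kcnj4, and 5.3 and 4.2 for Kcnh6. At the start of Kcnk18, the region ran over chr19:59219514-59220106 in the MS275 list, with a width of 593 bp, and over chr19:59219428-59220994 in the vehicle list, with a width of 1567 bp. The authors' fold enrichment of these regions was 2.23 in the MS275 list and 3.29 in the vehicle list. For Kcns2, also lower in RNA, it was 2.23 in the MS275 list and 2.08 in the vehicle list. Among the members higher in RNA, it was smaller in the MS275 list for Kcnc4 (1.86, against 1.92) and Kcnab3 (2.18, against 2.22). Fold enrichment was larger there for the others, but their −log10 q was not always so. That value was smaller in the MS275 list for Kcna4, Kcnab1, Kcnip3, Kcnj4 and Kcnk5, and larger there for Kcnh6 and Kcnj14. The share of all genes with a larger fold in the MS275 list was not computed. For Kcns2, Kcnab3 and Kcnj14 the strand was not known, so their regions may lie at either end of the gene. Folds and widths describe each list and do not test a difference between treatments. Within gene spans, 999 regions of the MS275 list and 1080 of the vehicle list fell in members, or 0.617% and 0.607% of each list.

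Promoters of 58 of the 81 members were found in RefSeq's table, 82 promoters in all, and the 250 bases before each start were searched on both strands. The GC box GGGCGG was in 36 of the 82 (43.9%, against 32.7% of 32851 promoters), the AP-1 site TGANTCA in 4 (4.88%, against 6.75%) and the TATA box TATAAA in 3 (3.66%, against 12.4%). The cAMP response element TGACGTCA was in none, against 1.55% of all. These promoters had a median GC content of 58.8%, against 52.4% over all promoters. The left part of the RE1 element, TTCAGCACC, was in 1 of the 82 (1.22%, against 0.301% of all). It was in Kcnh6, 186 bases before the transcript start of the promoter table, which lies inside the annotated gene span that begins at chr11:106008044, at chr11:106007952-106007980 on the plus strand with 10 bases on each side, and is shown because it was the single match among members. A match is a run of letters and shows no binding.
Kcnh6: cttggcttatTTCAGCACCacgacgcgga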

How the data were processed

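RNA-seq and ATAC-seq were analysed from the tables the authors deposited. RNA libraries were poly(A)-selected and directional, with paired reads of 75 bp, per the labels' protocols. The authors deposited whole-number read counts per gene name. The build mm10 and the tools R 3.5.0, limma 3.38.3, edgeR 3.24.3, FastQC 0.10.1 and STAR 2.7.0 are listed without their roles, per the submitters' processing notes. Which tool counted reads, with what strand setting, and which called peaks was not given in the sources used here. In the deposited ATAC lists each region carries the authors' fold enrichment ratio and −log10 q value, 1 list per treatment. Peaks with the same limits were counted once.

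Counts were scaled to CPM with TMM factors, filtered with filterByExpr and tested for MS275 against vehicle with the quasi-likelihood test of edgeR 4.0.16 (R 4.3.3), with no covariate, and p-values were adjusted by Benjamini and Hochberg over all 16819 genes. Log2 fold changes are MS275 over vehicle. Entries that name no gene held 18.89 to 20.56% of reads and were left out. Assigned reads ranged from 34992533 to 60370523 per library, with 3 libraries per group. Levels were not compared between genes. The alternatives were another normalisation, no low-count filter, DESeq2 1.42.0, limma-voom 3.58.1, a replicate block, mitochondrial and haemoglobin genes left out, a muscle covariate and each library left out. The members, gene lists and tests were chosen with earlier results of these data known. Named members were those that passed, that of smallest p in each subfamily and a list known from these ganglia; other members were named after their values were seen. Sequences and coordinates are RefSeq's for GRCm38.p6, the assembly behind mm10; 95.1% of tested genes were placed. Values of some members, which stay in all counts and medians, are not reported here.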

Additional observations from a re-analysis of the deposited data

How the results depend on the processing

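No sign turned among members called in either fit, and each of the 11 members that passed kept its direction in the 13 alternatives. As the groups did not overlap for these 11, a turned sign was hardly possible, and this is no separate support. The muscle covariate left 0 members higher, 0 lower and 0 repressors lower. That covariate was higher in each MS275 library than in each vehicle library, so its fit cannot tell muscle from treatment. Without 1 library, members called higher ranged from 0 to 11, members called lower from 1 to 4, partners called higher from 0 to 1, repressors called lower from 1 to 4 and HCN genes called lower from 0 to 1. Over all genes tested in these fits, those called higher ranged from 127 to 1388 and those called lower from 134 to 1375. DESeq2 called 1 partner higher. With regions at a −log10 q of at least 5, 2 members had a region in the MS275 list alone (2.47%, against 1.83% of all genes placed), 12 in the vehicle list alone (14.8%, against 5.13%) and 17 in neither (21.0%, against 18.3%). At that limit the vehicle list is the longer, as the MS275 list has 32235 regions and the vehicle list 45078, and presence has no replicate error. With a window of 2500 bp, 2 had one in the MS275 list alone and 3 in neither. The shares over all genes were not computed for that window, and a wider window takes in more regions for any gene. The cause of these shifts was not tested. With the replicate number as a block 11 members passed, Kcnh2 in place of Kcnip3. Whether the numbers pair the samples cannot be told from so few libraries. Same-numbered libraries had correlations of 0.019, 0.111 and -0.061 of their deviations from the group means. MS275 library 1 correlated best with vehicle library 3, at 0.113, while MS275 libraries 2 and 3 did so with vehicle library 2, at 0.111 and 0.076. With the block 2088 of all genes passed, against 1849 without it. Members under about 1 CPM had wide intervals, so a change in them was not detectable at this depth unless large.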
